A study of Mus musculus with 12 samples.

Results

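The chemokines and chemokine receptors described here are 53 of the 37991 genes counted in mouse spinal cord. They were chosen by symbol, as genes named Ccl, Cxcl, Ccr or Cxcr followed by a number, with the Ccl21 genes left out. The set holds 24 CC ligand entries, 13 CXC ligands, 9 CC receptors and 7 CXC receptors. Of these, 26 passed the filter on low counts and were tested, 16 were detected but too low to test, and 11 had fewer than 3 counts in every library.

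RNA came from 12 adult mice over 8 weeks old on a C57bl/6J background, all with the genotype Glast-CreERT2 x R26R-YFP x Rasless. In this line a tamoxifen-activated Cre driven by the Glast promoter recombines the Rasless alleles and a YFP reporter, with type A pericytes as the cells the study aimed at. There were 3 groups of 4 mice. The uninjured group (Uninjured) gave cord segments without a lesion, and its labels list vehicle as the injection and no treatment. The vehicle group (SCI Veh) received solvent and the tamoxifen group (SCI Tam) received 2 mg of tamoxifen on each of 5 days. After a clearing period of 7 days both had a dorsal hemisection at high thoracic level, and the lesion site was taken 14 days later. Vehicle lesions were described by the submitters as densely scarred and tamoxifen lesions as having attenuated pericyte-derived scarring. The labels number the mice individually, and per-library values below are listed in the order 376, 377, 385 and 467 for uninjured cord, 402, 428, 429 and 457 for vehicle, and 452, 513, 549 and 564 for tamoxifen.

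Chemokines are small secreted proteins that direct the migration of cells along gradients by acting on G protein-coupled receptors. The CC and CXC families are told apart by the spacing of the first cysteines, and many ligands bind several receptors. In injured nervous tissue they are known for recruiting monocytes, neutrophils and lymphocytes, and Cxcl12 with its receptors Cxcr4 and Cxcr7 also guides cell positioning in the uninjured nervous system.

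Promoter sequences of members that were high in lesions are shown first, because these genes rose together after injury. They are the 250 bases before the RefSeq start on GRCm38.p6, all on the minus strand, with 3 kinds of motif in capitals: the core of the interferon-stimulated response element (TTTC, any 2 bases, TTTC), the AP-1 site TGANTCA and the kappaB consensus, searched on both strands. Cxcl10, an interferon-inducible ligand of Cxcr3, lies at chr5:92348890-92349139. Ccl3, Ccl6 and Ccl9, ligands of Ccr1, lie close to each other at chr11:83649379-83649628, chr11:83593088-83593337 and chr11:83578637-83578886.
Cxcl10: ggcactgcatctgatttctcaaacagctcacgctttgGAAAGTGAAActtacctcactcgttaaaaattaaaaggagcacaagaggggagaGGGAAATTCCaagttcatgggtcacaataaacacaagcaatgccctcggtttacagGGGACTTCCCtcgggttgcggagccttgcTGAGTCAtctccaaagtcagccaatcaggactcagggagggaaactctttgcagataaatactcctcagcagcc
Ccl3: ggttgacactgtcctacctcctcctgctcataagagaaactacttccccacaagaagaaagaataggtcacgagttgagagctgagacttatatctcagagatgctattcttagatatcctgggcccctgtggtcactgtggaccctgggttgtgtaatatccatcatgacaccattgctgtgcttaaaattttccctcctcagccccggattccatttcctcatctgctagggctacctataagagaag
Ccl6: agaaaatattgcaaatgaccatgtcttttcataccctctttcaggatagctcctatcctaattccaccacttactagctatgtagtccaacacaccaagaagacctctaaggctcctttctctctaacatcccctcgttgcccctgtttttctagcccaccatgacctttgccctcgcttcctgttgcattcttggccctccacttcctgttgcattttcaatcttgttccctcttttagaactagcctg
Ccl9: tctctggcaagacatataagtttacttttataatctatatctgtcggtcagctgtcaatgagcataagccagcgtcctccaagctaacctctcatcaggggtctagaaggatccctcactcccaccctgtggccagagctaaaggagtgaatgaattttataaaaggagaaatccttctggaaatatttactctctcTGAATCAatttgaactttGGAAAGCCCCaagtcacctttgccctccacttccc
The Cxcl10 window held all 3 motifs, the kappaB consensus at 2 places. The Ccl9 window held an AP-1 and a kappaB match, and the Ccl3 and Ccl6 windows held none, although these 4 genes all rose after injury. The neutrophil-attracting ligands Cxcl1, Cxcl2 and Cxcl3 each held 2 overlapping kappaB matches. The first, printed below, had the same bases in each and began at base -71, -97 and -73 from their starts. The second began at -70, -96 and -72.
Cxcl1, Cxcl2 and Cxcl3 site: GGGAATTTCC
A kappaB match was present in 8 of 43 promoter windows of the set and in 3.90% of 32851 windows of the same length in the RefSeq table. For AP-1 these were 6 of 43 and 6.75%, and for the interferon element 3 of 43 and 2.98%. Some genes have several windows, and 36 of 52 symbols were matched. Of the 12 windows of members that were higher in vehicle lesions, 2 held each motif. A match is a description of letters and not of a bound factor.

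Library totals ran from 7967970 to 12581324 counts. Levels are counts-per-million (CPM) scaled by TMM, which are not scaled for transcript length. Levels of different genes are ranked by the FPKM that the authors deposited, which is per transcript length. The exceptions are sums over genes and figures drawn in CPM, where longer transcripts weigh more. Some traits of the libraries differed between groups. By label, 9 libraries have sample names between 1 and 20, and tamoxifen libraries 513, 549 and 564 have 106 to 108, so that 452 is the only tamoxifen library of the first series. Skeletal muscle transcripts were high in uninjured 377 and 385 and in vehicle 402, 429 and 457. By sex-linked transcripts, 4 tamoxifen, 1 vehicle and 3 uninjured libraries were female. Marker lists of neurons, oligodendrocytes and astrocytes were detected in full. Neuron markers summed to 3505 to 3797 CPM in uninjured, 2022 to 2611 in vehicle and 2433 to 3349 in tamoxifen libraries. Astrocyte markers summed to 4489 to 5187, 7598 to 9802 and 8555 to 11270, and oligodendrocyte markers to 13030 to 16260, 13520 to 16210 and 16040 to 16860. The part of these cells in the results was not tested. The part of sex and sample name series in the results was tested only through the alternatives given with them.

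After injury the chemokine system was higher in vehicle lesions. Of the 26 members tested, 18 rose in vehicle lesions against uninjured cord and 1, Ccl27a, fell (edgeR quasi-likelihood test, Benjamini-Hochberg adjusted p under 0.05 over 16473 genes). Over all genes tested, 26.7% were higher and 24.1% lower. The median log2 change was 2.57 over the tested members and 0.018 over all genes. Among CC ligands 11 of 15 rose, among CXC ligands 3 of 6, and among receptors 2 of 3 of the CC and 2 of 2 of the CXC class. Values of vehicle and uninjured libraries did not overlap for 17 higher members and 1 lower member, against 26.3% and 24.7% of all genes. In tissue RNA, more cells of a type and more RNA per cell cannot be told apart. The 8 microglia and macrophage markers, all detected and all higher in vehicle lesions, summed to 189 to 232 CPM in uninjured, 637 to 1134 in vehicle and 532 to 821 in tamoxifen libraries. Their part in the rise of the chemokines was not tested. Without the 5 libraries high in muscle transcripts, a single vehicle library remained and was assumed to vary like the others. All 18 then still had a positive log2 change (0.17 to 7.20), but 0 members passed the edgeR test, beside 1.60% of genes higher and 0.103% lower. Of 28 members tested in that fit, 14 were higher at an unadjusted p under 0.05 and 0 lower.

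**Figure D1:**
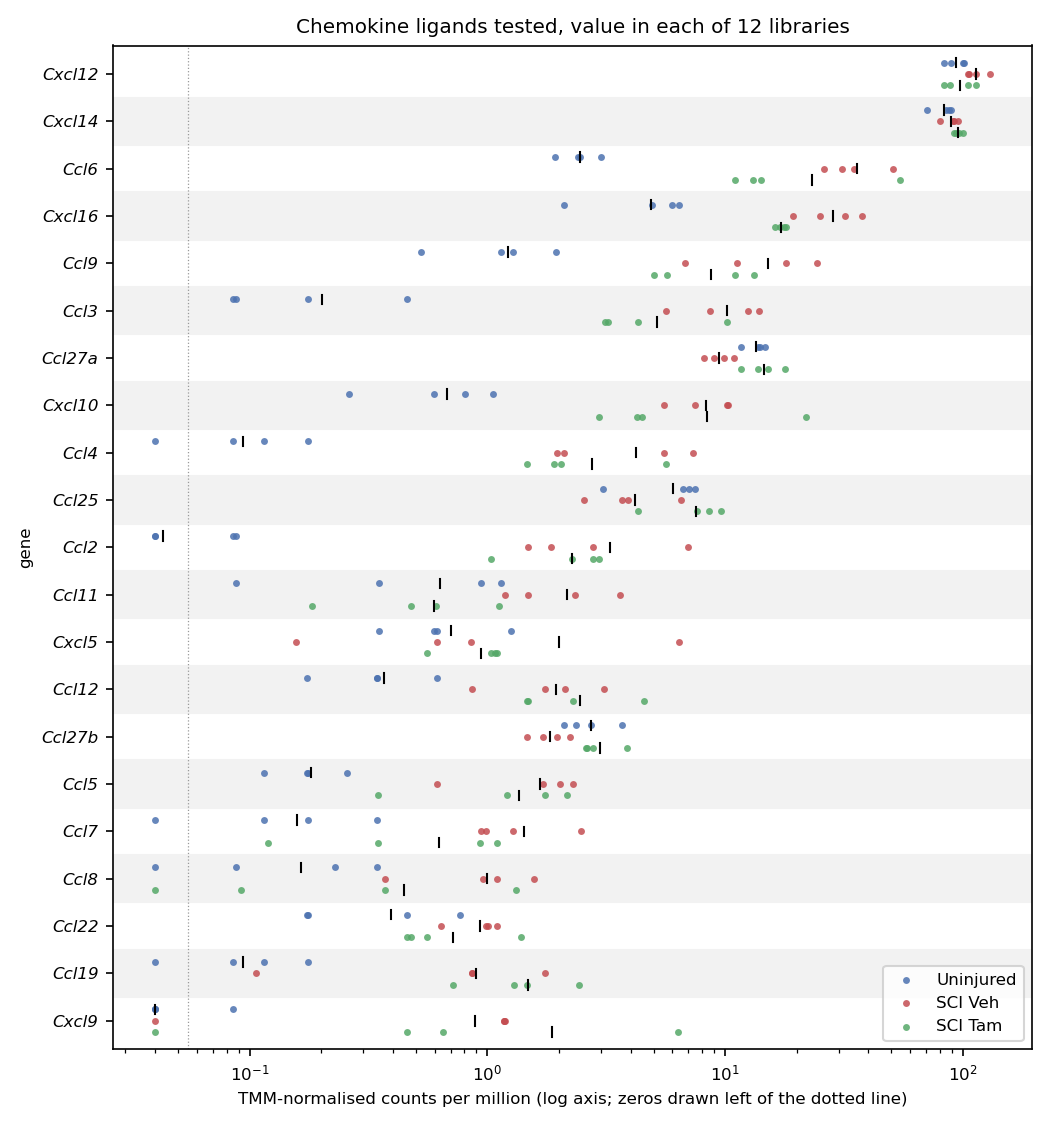
Level of each of 21 tested chemokine ligands in each of 12 libraries, in TMM-normalised CPM on a log axis, with 1 point per library, colours for the groups and a black tick at each group mean. Both lesion groups of Ccl2, Ccl3, Ccl4, Ccl6 and Ccl9 lie to the right of uninjured cord, while Cxcl14 stays between 70.8 and 100.5 CPM in all libraries and Cxcl12 between 82.9 and 130.2.

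Ccl3, Ccl4 and Ccl5 are CC ligands released by macrophages, microglia and T cells. Ccl3, also known as macrophage inflammatory protein 1 alpha, stood at 0.458, 0.0855, 0.175 and 0.0876 CPM in uninjured cord, at 12.5, 8.62, 13.9 and 5.63 in vehicle lesions and at 10.2, 4.28, 3.20 and 3.12 in tamoxifen lesions. Every lesion library was above every uninjured one, and tamoxifen library 452 was within the vehicle range while the other tamoxifen libraries were below it. Ccl3 rose by 5.68 ± 0.60 (log2, SE) in vehicle lesions (edgeR adjusted p = 1.45e-05) and by 4.69 ± 0.63 in tamoxifen lesions (adjusted p = 0.000123). Ccl4, its close relative, was at 0.0939 CPM ± 0.0729 (SD, n = 4), 4.23 ± 2.65 and 2.76 ± 1.92 in the 3 groups, and rose by 5.35 ± 0.79 in vehicle lesions. Ccl5, a T cell and monocyte attractant better known as RANTES, rose by 3.12 ± 0.61 to 1.66 CPM ± 0.736, and was at 1.36 ± 0.780 in tamoxifen lesions.

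Ccl6 and Ccl9 are rodent ligands of Ccr1. Ccl6 was the most abundant CC ligand of the vehicle lesions by FPKM, at 33.1 ± 10.2 (SD, n = 4). Its CPM values were 2.41, 2.99, 2.46 and 1.93 in uninjured cord, 34.9, 26.1, 50.9 and 31.1 in vehicle lesions and 54.3, 10.98, 13.1 and 14.1 in tamoxifen lesions. The tamoxifen group was split, with 452 above all vehicle libraries and the other 3 below them. Ccl6 rose by 3.86 ± 0.53 in vehicle lesions (edgeR adjusted p = 7.56e-05) and by 3.21 ± 0.53 in tamoxifen lesions (adjusted p = 0.000428), both against uninjured cord. Ccl9 was at 1.95, 1.28, 1.14 and 0.526 CPM in uninjured cord, 18.0, 6.78, 24.3 and 11.2 in vehicle lesions and 13.2, 5.67, 5.02 and 10.999 in tamoxifen lesions. All lesion libraries were above all uninjured ones, with overlap between the lesion groups. Ccl9 rose by 3.65 ± 0.49 in vehicle lesions (edgeR adjusted p = 6.80e-05) and by 2.84 ± 0.50 in tamoxifen lesions (adjusted p = 0.000624). Its FPKM in vehicle library 429 was 47.9, against 5.37 to 10.9 in the other vehicle libraries, so its FPKM mean rests on that library.

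The monocyte chemoattractants that act on Ccr2 rose with injury. Ccl2, the main ligand of Ccr2, had 2 counts over the 4 uninjured libraries, 136 in vehicle and 93 in tamoxifen lesions. The ratio of CPM was 71.4 for vehicle against uninjured (95% counting interval 19.4 to 595) and 48.4 for tamoxifen against uninjured (13.02 to 405). Both passed the test against uninjured cord (edgeR adjusted p = 0.000105 and 0.000426). Intervals cover counting error only. Ccl7 and Ccl12, 2 further Ccr2 ligands, rose by 3.05 ± 0.69 and 2.38 ± 0.53 in vehicle lesions, to 1.42 CPM ± 0.719 and 1.95 ± 0.923. By FPKM, Ccl12 was at 1.12 ± 0.183 in uninjured cord, against 0.0572 ± 0.0660 for Ccl2. In tamoxifen lesions Ccl12 was at 2.45 CPM ± 1.45 and higher than in uninjured cord (edgeR adjusted p = 0.00132), and Ccl7 was at 0.624 ± 0.466 and did not pass (adjusted p = 0.0563). Ccl8, a monocyte attractant, rose by 2.59 ± 0.89 in vehicle lesions to 0.998 CPM ± 0.493 (edgeR adjusted p = 0.0280). That call was lost in 6 of the fits that left out 1 library, without 376, 385, 467, 402, 429 or 457.

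The eosinophil attractant Ccl11, or eotaxin, a ligand of Ccr3, was the CC ligand that rose in vehicle lesions and was lower again after tamoxifen. Its CPM values were 1.15, 0.941, 0.351 and 0.0876 in uninjured cord, 2.35, 1.48, 1.19 and 3.60 in vehicle lesions and 0.478, 1.12, 0.606 and 0.183 in tamoxifen lesions. All 4 vehicle libraries were above all others, by a narrow margin for 429, and the tamoxifen and uninjured values overlapped. Ccl11 rose by 1.82 ± 0.58 with injury (edgeR adjusted p = 0.0181), a call lost without 385, without 457 and with a sex term (adjusted p = 0.0681). Ccl19, a ligand of Ccr7 on dendritic and T cells, was at 0.0939 CPM ± 0.0729, 0.893 ± 0.668 and 1.48 ± 0.706, and rose by 3.14 ± 0.82 in vehicle lesions (edgeR adjusted p = 0.00654). Its transcript shares 58.8% of its 31-base words with copies such as Ccl19-ps1 and Ccl19-ps3, and its FPKM gave another order, 1.53 ± 1.46, 3.91 ± 1.34 and 1.80 ± 1.00, so its level is uncertain. Ccl22, a ligand of Ccr4, was at 0.395 ± 0.283, 0.932 ± 0.201 and 0.720 ± 0.445 CPM and passed in no comparison.

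Ccl27a, Ccl27b and Ccl25 were already present in uninjured cord and did not rise. Ccl27a, a ligand of Ccr10 best known from skin, was at 13.7, 11.6, 14.0 and 14.7 CPM in uninjured cord, 8.96, 10.8, 8.16 and 9.86 in vehicle lesions and 13.8, 15.2, 11.7 and 17.8 in tamoxifen lesions. The 4 vehicle libraries were below all others, while uninjured and tamoxifen values overlapped. Ccl27a fell by 0.52 ± 0.14 on the log2 scale in vehicle lesions (edgeR adjusted p = 0.00740). On log2 FPKM with 1 and 0.1 added this call was lost (limma adjusted p = 0.0624 and 0.0631). Ccl27b, a near copy, was at 2.72 CPM ± 0.683, 1.84 ± 0.323 and 2.96 ± 0.595, and its change of -0.56 ± 0.23 with injury did not pass (adjusted p = 0.0569). Of the 31-base words of Ccl27a, 57.0% occur in other genes, Ccl27b among them, so reads could be split between these genes. Ccl25, a ligand of Ccr9 known from thymus and gut, was at 7.45, 7.01, 6.66 and 3.07 CPM in uninjured cord, 2.56, 6.53, 3.67 and 3.91 in vehicle lesions and 4.31, 8.56, 7.62 and 9.62 in tamoxifen lesions. These ranges overlapped in every pair of groups and no change of Ccl25 passed the test. Its exons overlap Elavl1 on the opposite strand over 2.74% of their bases, and the strand setting of the counting is not given in the sources used here.

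Of the CXC ligands, Cxcl10 and Cxcl16 rose most clearly. Cxcl10, whose promoter holds the interferon element, was at 0.802, 0.599, 1.05 and 0.263 CPM in uninjured cord, 10.1, 5.54, 10.3 and 7.43 in vehicle lesions and 21.8, 4.46, 4.24 and 2.93 in tamoxifen lesions. Lesions and uninjured cord did not overlap, and again 452 was above every vehicle library and the other tamoxifen libraries below them. Cxcl10 rose by 3.61 ± 0.69 in vehicle lesions (edgeR adjusted p = 0.000799) and by 3.58 ± 0.69 in tamoxifen lesions (adjusted p = 0.00113). Cxcl9, another interferon-inducible Cxcr3 ligand, had 1 count in uninjured cord, 39 in vehicle and 65 in tamoxifen lesions, of which 452 supplied most. The vehicle to uninjured ratio was 40.9 (95% counting interval 6.93 to 1658) and did not pass the test (edgeR adjusted p = 0.0565), while tamoxifen against uninjured passed (67.6, interval 11.7 to 2711, adjusted p = 0.0187). Without 452 the tamoxifen call was lost (adjusted p = 0.0716), as it was without 377 (0.0529) and by limma-voom (0.120).

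Cxcl16, a membrane-bound ligand of Cxcr6, was at 6.41, 5.99, 4.91 and 2.10 CPM in uninjured cord, 32.0, 19.3, 37.5 and 25.0 in vehicle lesions and 17.7, 18.0, 17.0 and 16.1 in tamoxifen lesions. The 3 groups were fully apart, with tamoxifen between the others. Cxcl16 rose by 2.56 ± 0.27 in vehicle lesions (edgeR adjusted p = 1.46e-05) and by 1.84 ± 0.27 in tamoxifen lesions (adjusted p = 0.000224). Its exons overlap Zmynd15 on the opposite strand over 18.3% of their bases. Cxcl5, a neutrophil attractant acting on Cxcr2, was at 0.706 CPM ± 0.389, 2.01 ± 2.95 and 0.943 ± 0.258, with 6.42 in vehicle library 429 alone, and passed in no comparison.

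Of the ligands that passed a test, Cxcl14 and Cxcl12 changed least in CPM. Cxcl14, expressed by many epithelial and neural cells, had the highest FPKM of all ligands in each group, 41.0 ± 3.96, 44.9 ± 3.37 and 49.7 ± 2.28 (SD, n = 4). Its CPM values were 84.4, 87.7, 89.1 and 70.8 in uninjured cord, 91.9, 94.9, 90.5 and 80.0 in vehicle lesions and 95.8, 100.5, 93.9 and 91.5 in tamoxifen lesions. The tamoxifen libraries were all above the uninjured ones, and Cxcl14 was higher there by 0.20 ± 0.08 (edgeR adjusted p = 0.0451), a call lost in 9 of 12 fits that left out 1 library and with DESeq2 size factors (adjusted p = 0.0617). With injury alone its change was 0.10 ± 0.08 (adjusted p = 0.279). Cxcl12, the ligand of Cxcr4 and Cxcr7, was at 99.9, 89.5, 100.5 and 83.6 CPM in uninjured cord, 105.6, 104.7, 113 and 130.2 in vehicle lesions and 114, 82.9, 87.9 and 104.7 in tamoxifen lesions. The vehicle libraries were above the uninjured ones and overlapped with the tamoxifen libraries. Cxcl12 rose by 0.28 ± 0.11 with injury (edgeR adjusted p = 0.0416). This small call was lost without 377, 467, 402, 428, 429 or 457, and with no filter on low counts (adjusted p = 0.0689). By FPKM the injury difference of Cxcl12 was larger, from 19.3 ± 3.06 to 29.2 ± 2.72, with 20.3 ± 1.98 in tamoxifen lesions (limma on log2 FPKM with 1 added, log2 0.58 for vehicle against uninjured, adjusted p = 0.00144).

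**Figure D2:**
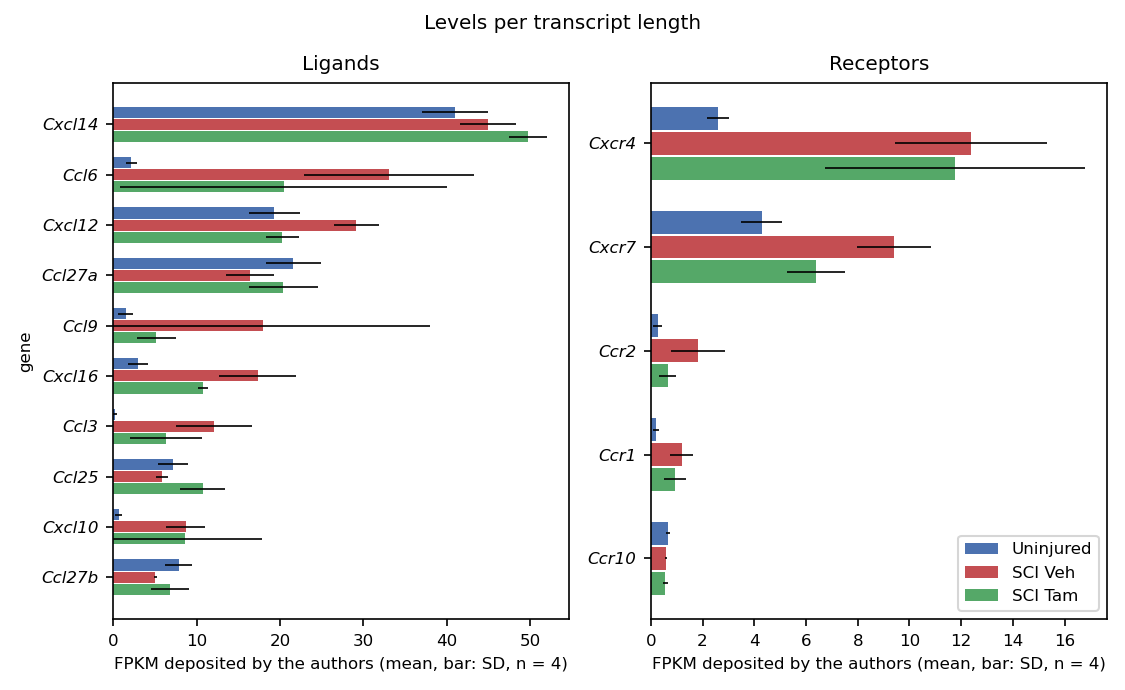
Levels per transcript length, as the authors' FPKM (mean of 4 libraries, error bar SD, drawn from 0 upward), for the 10 tested ligands with the highest group mean and the 5 tested receptors in uninjured cord, vehicle lesions and tamoxifen lesions. Cxcl14 leads the ligands in every group, Ccl6 follows in vehicle lesions, and the SD of Ccl9 in vehicle lesions and of Ccl6 and Cxcl10 in tamoxifen lesions is about as large as the mean.

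Of the 5 receptors tested, 4 rose in vehicle lesions, beside 26.7% of all genes. By FPKM the order in uninjured cord was Cxcr7 (4.28 ± 0.806), Cxcr4 (2.59 ± 0.427) and Ccr10 (0.653 ± 0.0814), and in vehicle lesions Cxcr4 (12.4 ± 2.94), Cxcr7 (9.39 ± 1.43) and Ccr2 (1.81 ± 1.04), where Cxcr4 and Cxcr7 differed by about the SD of Cxcr4. Ccr1, the receptor of Ccl3, Ccl6 and Ccl9, was at 0.633 CPM ± 0.333, 3.77 ± 1.46 and 2.88 ± 1.20, and rose by 2.57 ± 0.44 and 2.20 ± 0.45 in the lesion groups.

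Ccr2, which marks monocytes arriving from blood, was at 1.15, 1.20, 0.877 and 0.0876 CPM in uninjured cord, 3.31, 3.70, 8.25 and 11.7 in vehicle lesions and 1.32, 4.00, 2.42 and 1.74 in tamoxifen lesions. Both lesion groups were above uninjured cord, and tamoxifen values were mostly below those of vehicle, with 513 overlapping them. Ccr2 rose by 3.05 ± 0.56 in vehicle lesions (edgeR adjusted p = 0.000653) and by 1.54 ± 0.60 in tamoxifen lesions (adjusted p = 0.0496). The tamoxifen call was lost in 8 of the fits that left out 1 library, and with DESeq2 size factors (adjusted p = 0.0510) and a sex term (0.0746). Ccr10, the receptor of Ccl27a, was at 1.48 CPM ± 0.236, 1.25 ± 0.0968 and 1.07 ± 0.173 and passed in no comparison.

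Cxcr4 was at 4.12, 3.93, 4.47 and 4.03 CPM in uninjured cord, 21.9, 15.5, 27.2 and 16.5 in vehicle lesions and 12.4, 23.3, 27.4 and 10.7 in tamoxifen lesions. The lesion groups overlapped, and both were above uninjured cord. Cxcr4 rose by 2.29 ± 0.30 in vehicle lesions (edgeR adjusted p = 5.90e-05) and by 2.16 ± 0.30 in tamoxifen lesions (adjusted p = 0.000153). Cxcr7, an atypical receptor that scavenges Cxcl12 and is named Ackr3 in newer annotations, was at 15.6, 16.9, 14.9 and 11.04 CPM in uninjured cord, 35.6, 27.1, 30.0 and 33.9 in vehicle lesions and 17.0, 23.2, 20.9 and 24.4 in tamoxifen lesions. The groups were fully apart, with tamoxifen between uninjured and vehicle. Cxcr7 rose by 1.12 ± 0.14 in vehicle lesions (edgeR adjusted p = 5.33e-05) and by 0.55 ± 0.15 in tamoxifen lesions (adjusted p = 0.00765).

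**Figure D3:**
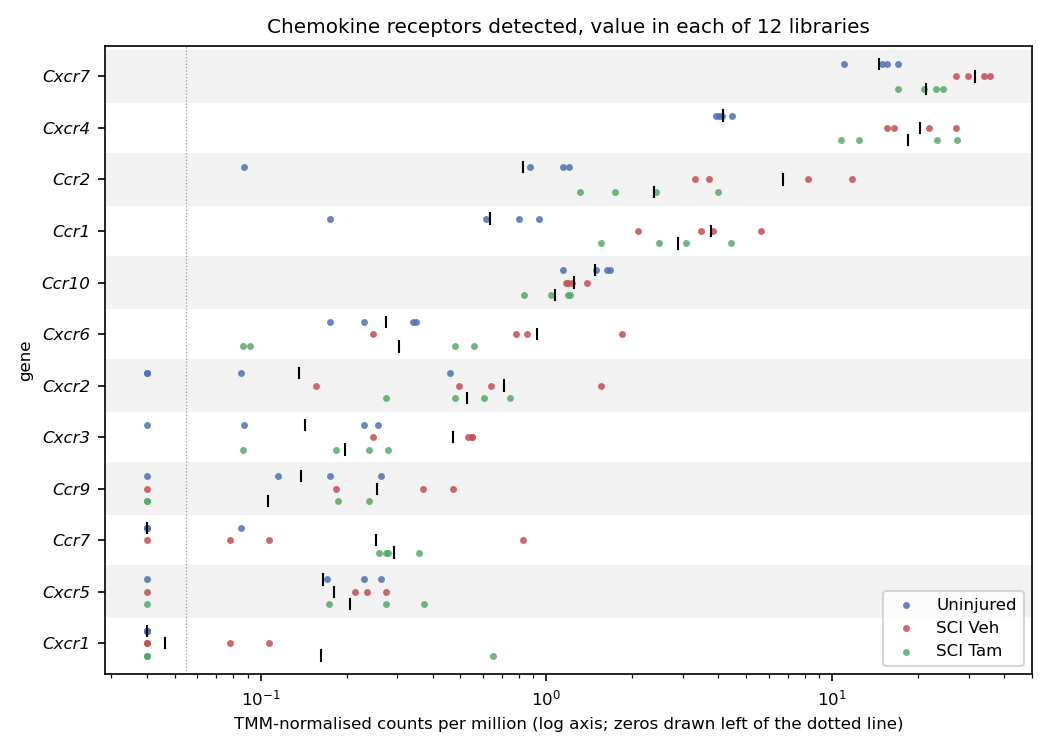
Level of the 12 chemokine receptors that were detected, 5 tested and 7 too low to test, in each of 12 libraries, in TMM-normalised CPM on a log axis, with 1 point per library and a black tick at each group mean. Cxcr7 and Cxcr4 lie highest, and the vehicle and tamoxifen libraries of Cxcr4, Ccr2 and Ccr1 lie to the right of all uninjured libraries.

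The tamoxifen lesions also stood above uninjured cord. Of 26 members tested, 16 were higher and 0 lower (edgeR, against 26.3% and 22.7% of all genes), with a median log2 change of 1.88, against 0.014 for all genes. The groups did not overlap for 15 higher members and 0 lower ones, beside 21.4% and 19.7% of all genes. Both lesion groups were compared with the same uninjured libraries. Ccl7, Ccl8, Ccl11 and Cxcl12 passed in vehicle lesions alone, and Cxcl9 and Cxcl14 in tamoxifen lesions alone. Of these 6 only Ccl11 passed the direct test between the lesion groups. With a term for the sample name series, which rests the tamoxifen value on library 452, 11 members were higher than in uninjured cord and 0 lower, beside 7.55% and 4.29% of genes. Ccl19, Ccr1, Ccr2, Cxcl14 and Cxcr7 were then no longer called.

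Between the lesion groups few members differed. Of 26 tested, 1 was higher after tamoxifen and 2 were lower (edgeR), shares near those of all genes (7.79% higher and 8.33% lower). The median log2 change was -0.36 over the members and 0.001 over all genes. Values did not overlap for 2 higher members (Ccl27a and Ccl27b) and 3 lower ones (Ccl11, Cxcl16 and Cxcr7), beside 7.67% and 8.77% of all genes. The 5 fibroblast markers summed to 1866 to 4943 CPM in vehicle and 471 to 700 in tamoxifen libraries, and 4 of 5 tested were lower after tamoxifen. The 5 dendritic cell markers summed to 98.0 to 156 and 42.2 to 82.3, and 1 of 3 tested was lower. The 5 pericyte and smooth muscle markers summed to 359 to 427 and 291 to 339, and 2 of 5 were lower. Lower markers also numbered 2 of 5 for lymphatic endothelial cells, 2 of 7 for skeletal muscle, 1 of 4 for endothelial cells and 1 of 8 for microglia and macrophages. Among neuron, oligodendrocyte, astrocyte and Schwann cell markers 0 were lower or higher. The part of these cells in the differences was not tested.

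Ccl11 fell by 1.85 ± 0.58 on the log2 scale after tamoxifen (edgeR adjusted p = 0.0471), a call that was lost in 10 of 12 fits leaving out 1 library, each but those without 376 or 467, with log2 values from -2.34 to -1.45. It was also lost with a sex term (adjusted p = 0.191), with no filter (0.0513) and by limma-voom (0.0570). Cxcr7 fell by 0.56 ± 0.14 (edgeR adjusted p = 0.0204), and the call was lost without 402 (adjusted p = 0.0512), without 457 (0.0526), with a sex term (0.0513) and on log2 FPKM with 1 added (0.0562). Ccl27a was higher by 0.63 ± 0.14 (edgeR adjusted p = 0.0121). On log2 FPKM with 1 added the Ccl27a difference was 0.30 and was not called (limma adjusted p = 0.236). With the series term no member passed, beside 0.103% of genes higher and 0.243% lower, and the log2 changes were -2.17 for Ccl11, -0.90 for Cxcr7 and 0.54 for Ccl27a.

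Members that missed the threshold included Ccr2, at -1.51 ± 0.49 (edgeR adjusted p = 0.0542), Cxcl16 at -0.73 ± 0.24 (adjusted p = 0.0593), Ccl27b at 0.70 ± 0.23 (adjusted p = 0.0533), Ccl25 at 0.87 ± 0.33 (adjusted p = 0.0855) and Ccl3 at -0.99 ± 0.39 (adjusted p = 0.0956). The DESeq2 Wald test called Ccr2 and Cxcl16 lower as well. Changes of Cxcr4 (-0.13 ± 0.27), Cxcl14 (0.10 ± 0.08) and Cxcl12 (-0.22 ± 0.11) also missed the threshold.

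**Figure D4:**
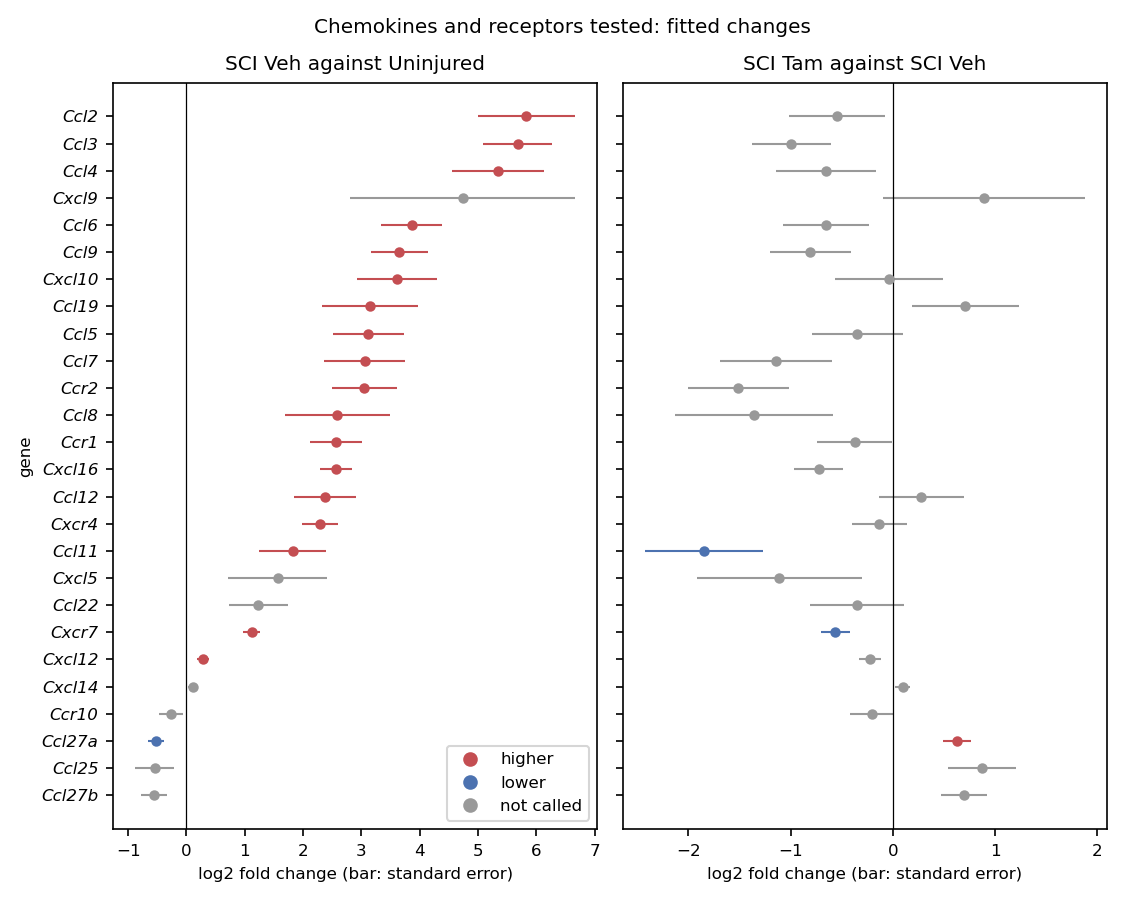
Fitted log2 fold changes (points) with standard errors (bars) of the 26 tested members, ordered by the change with injury, for vehicle lesions against uninjured cord and tamoxifen lesions against vehicle lesions. Red and blue mark members that passed the edgeR test as higher or lower, 18 and 1 with injury and 1 and 2 after tamoxifen, and grey marks the rest.

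Tamoxifen library 452 stood apart from 513, 549 and 564 for Ccl6, Cxcl9 and Cxcl10. Of the 26 members, 10 had their highest tamoxifen value in 452 and 7 their lowest, near the shares of all genes (30.7% and 30.9%). Tested within the tamoxifen group, 3 ligands were lower in 513, 549 and 564 than in 452 and 0 members were higher (edgeR, beside 1.75% and 2.78% of all genes). Ccl6 was at 54.3 CPM in 452 and 12.7 on average in the others (log2 -2.09, adjusted p = 0.000653). Cxcl10 was at 21.8 and 3.88 (log2 -2.48, adjusted p = 0.00148), and Cxcl9 at 6.34 and 0.370 (log2 -4.08, adjusted p = 0.0155). Other ligands of inflammation did not pass. Of these, Ccl3 (log2 -1.52), Ccl4 (-1.63), Ccl8 (-3.03) and Ccl12 (-1.37) were also lower in 513, 549 and 564 than in 452. Ccl2 was about equal (-0.02), and Ccl7 (2.60) and Ccl19 (1.25) had the opposite sign. The median over the 26 members was -0.013. The group compared has a single library on that side, whose spread was taken from the others. Mouse and sample name series cannot be told apart here. Microglia and macrophage markers summed to 744 CPM in 452, within the 532 to 821 of the other tamoxifen libraries. T and NK cell markers, at 3.59 in 452, were also within the range of the others (2.51 to 3.72). Dendritic cell markers were highest in 452, at 82.3 CPM against 63.9, 48.5 and 42.2 in 513, 549 and 564. Neutrophil markers were at 51.9 in 452 against 48.2, 47.9 and 37.1. The part of these cells in the differences of 452 was not tested.

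Without 452 the tamoxifen lesions differed from vehicle lesions for more members, and also for more of all genes. Of 27 members then tested, 6 were lower and 3 higher, beside 13.5% and 13.9% of all genes. With 452 these shares of all genes were 8.33% and 7.79%. Ccl6 was lower by a log2 change of -1.49 (edgeR adjusted p = 0.000288), Ccl3 by -1.52 (adjusted p = 0.00455) and Cxcl10 by -1.10 (adjusted p = 0.0128). Ccl8, Cxcl12 and Cxcr7 were also called lower, at -2.69, -0.30 and -0.47, and Ccl25, Ccl27a and Ccl27b higher, at 1.06, 0.66 and 0.75. Ccl11 no longer passed (log2 -1.77, adjusted p = 0.0547). With 452 as the only tamoxifen library of the first series, through the series term, Ccl6 and Cxcl10 had the opposite sign, at 0.60 and 1.38.

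**Figure D5:**
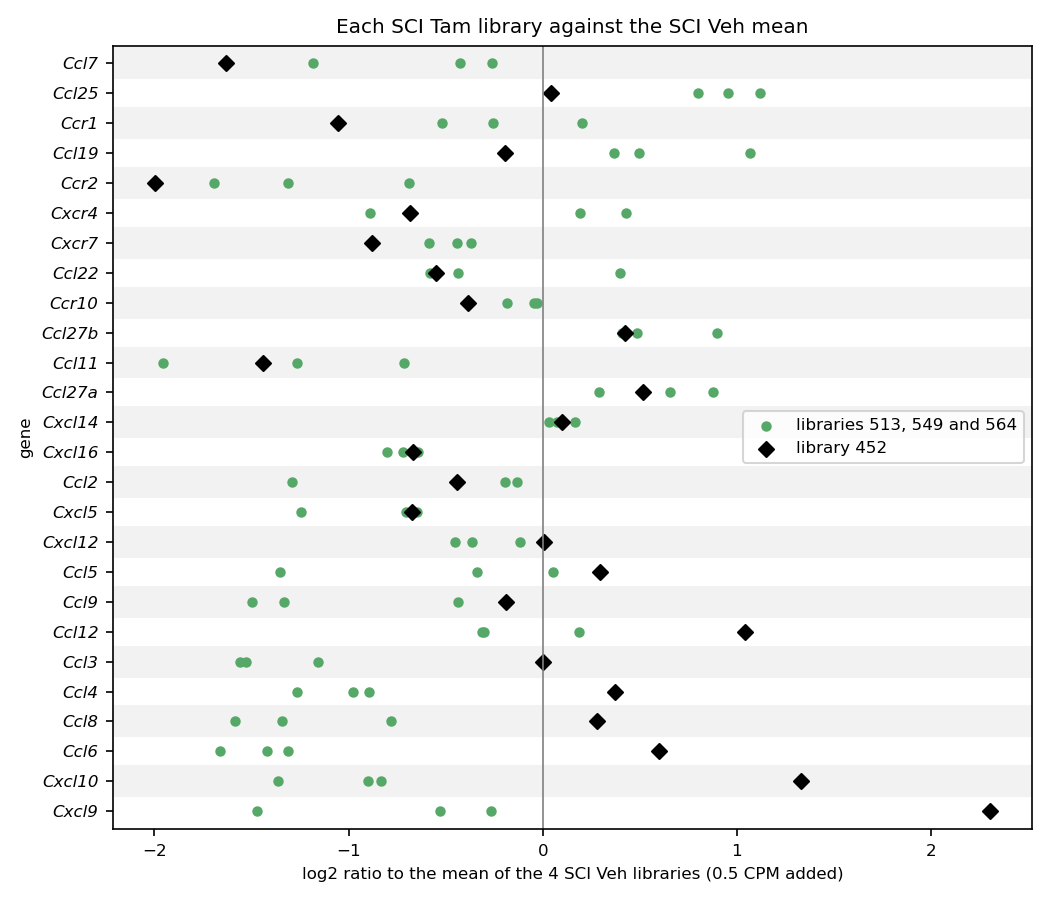
Each tamoxifen library against the mean of the 4 vehicle libraries, as a log2 ratio of CPM with 0.5 added, for the 26 tested members, with library 452 as a black diamond and 513, 549 and 564 as green points. At the bottom, Cxcl9, Cxcl10, Ccl6, Ccl8 and Ccl4 have 452 above the vehicle mean and the other 3 libraries below it.

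Neutrophil-attracting CXC ligands were scarce and uneven. Cxcl2 had 24, 0, 29 and 0 counts in the vehicle libraries, 2 counts over uninjured cord and 1 over the tamoxifen lesions. Cxcl3 had 10, 0, 22 and 1 counts in vehicle lesions and 0 elsewhere, at least 11.5-fold higher than in uninjured cord and 11.1-fold higher than in tamoxifen lesions, taking 3 counts over a group as the limit of 0. Cxcl1 had 4, 9, 50 and 1 counts in vehicle lesions and 2, 10, 4 and 5 in tamoxifen lesions, with 2 over uninjured cord. Vehicle libraries 402 and 429 supplied nearly all Cxcl2 and Cxcl3 counts. Libraries 402, 429 and 457 were high in muscle transcripts, and 457, the highest of them, had 0 Cxcl2 counts and 1 Cxcl3 count. The part of muscle tissue in these counts was not tested. The receptors of these ligands, Cxcr1 and Cxcr2, reached at most 7 and 17 counts in a library. The 9 neutrophil markers, of which Ly6g was below detection, summed to 9.37 to 81.6, 71.0 to 105 and 37.1 to 51.9 CPM in the 3 groups. Of the 7 tested, 1 was higher in vehicle lesions than in uninjured cord (beside 26.7% of all genes). After tamoxifen 1 was lower than in vehicle lesions (beside 8.33%).

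The other members too low to test were the ligands Ccl17 and Ccl24 (T cell and eosinophil attractants), Cxcl11 (a further Cxcr3 ligand), Cxcl13 (a B cell attractant) and the copies Ccl19-ps1 and Ccl19-ps3. Among receptors they were Ccr7, Ccr9, Cxcr3, Cxcr5 and Cxcr6. Cxcr6, the receptor of Cxcl16, had 2, 4, 4 and 2 counts in uninjured cord, 8, 2, 20 and 10 in vehicle lesions and 4, 6, 1 and 1 in tamoxifen lesions. Ccr7 had 3 counts in each tamoxifen library, 1 over uninjured cord and 11 over the vehicle lesions, 9 of them in 429. Ccl19-ps3 had counts in tamoxifen lesions alone (0, 10, 1 and 4), but its deposited FPKM was highest in vehicle lesions (0.260 ± 0.472, 0.833 ± 0.299 and 0.253 ± 0.267 in the 3 groups), so its level is uncertain. Below detection were the ligands Ccl1, Ccl20, Ccl26, Ccl28, Cxcl15 and Cxcl17, a second Ccl25 entry (ENSMUSG00000055951) and the receptors Ccr3, Ccr4, Ccr6 and Ccr8. A total of 0 counts over all 12 libraries, as for Ccl28 and Cxcl15, allows up to 0.0238 CPM. T and NK cell markers summed to 1.75 to 3.44, 3.33 to 8.43 and 2.51 to 3.72 CPM, with Ncr1 below detection.

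Summed over each class, CC ligands reached 29.0 CPM ± 3.92 in uninjured cord, 94.7 ± 25.4 in vehicle and 76.2 ± 28.6 in tamoxifen lesions (SD, n = 4). CXC ligands summed to 183 ± 18.0, 246 ± 17.0 and 222 ± 24.3, carried by Cxcl12 and Cxcl14. The CC receptors described here summed to 3.22 ± 0.737, 12.4 ± 4.38 and 6.87 ± 2.07 CPM, and CXC receptors to 19.5 ± 2.76, 54.3 ± 8.16 and 41.2 ± 9.43. These sums were not tested, and the 2 lesion groups lay within about their SD of each other for the CC and CXC ligands.

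Chemokine system genes outside the naming rule were tested beside them. Of 11, 6 rose in vehicle lesions and 1, Cx3cl1, fell (edgeR, beside 26.7% and 24.1% of all genes). The median log2 change was 1.22 against 0.018 for all genes. Cx3cr1, the fractalkine receptor of microglia, rose by 2.06 from 50.4 CPM ± 4.22 to 210.1 ± 56.0. Cx3cl1, its neuronal ligand, fell by 0.58 on the log2 scale, from 227 CPM ± 13.5 to 152 ± 10.9. Rarres2, the chemoattractant chemerin, rose by 1.58 and its receptor Cmklr1 by 2.60. Against vehicle, Rarres2 fell by 0.53 after tamoxifen (edgeR adjusted p = 0.00718) and Mif, a cytokine that binds Cxcr2 and Cxcr4, was higher by 0.37 (adjusted p = 0.0440), and neither passed with the series term. The Mif call was lost in 9 of 12 fits leaving out 1 library. The median between the lesion groups was -0.37. In tamoxifen lesions against uninjured cord 4 were higher and 1 lower (beside 26.3% and 22.7% of all genes).

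A list named inducers of chemokine transcription held 23 genes, of which 17 were tested. The cytokines Tnf, Il6, Ifng, Ifnb1, Il17a and Csf2 were too low to test. Of the 17, 16 rose in vehicle lesions and 0 fell (beside 26.7% and 24.1% of all genes), with a median log2 change of 1.20. The list also includes the NF-kappaB inhibitors Nfkbia and Tnfaip3, which rose by 0.93 and 1.58. Tnfrsf1a, the main receptor of tumour necrosis factor, rose by 1.66, and the NF-kappaB subunits Nfkb2 and Rela by 1.49 and 0.71. Ifngr1, a chain of the interferon gamma receptor, rose by 1.43. After tamoxifen 4 were lower than in vehicle lesions and 0 higher: Rela (log2 -0.33, edgeR adjusted p = 0.00951), Nfkb2 (-0.41, 0.0406), Myd88 (-0.61, 0.0415) and Nfkb1 (-0.30, 0.0458), beside 8.33% of all genes lower. Leaving out 1 library, the calls of Nfkb2, Myd88 and Nfkb1 were lost in 6, 8 and 7 of 12 fits. The median between the lesion groups was -0.34. All 17 were higher in tamoxifen lesions than in uninjured cord (26.3% of all genes). With the series term none of the 4 passed against vehicle, and 9 rather than 17 passed against uninjured cord, beside 7.55% of all genes.

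Of 22 signalling genes downstream of chemokine receptors, 17 rose in vehicle lesions and 4 fell (beside 26.7% and 24.1% of all genes), with a median log2 change of 1.37. The largest of the 4 with the smallest p was Rgs1, which shortens chemokine receptor signals, with a rise of 6.50 from 0.0652 CPM ± 0.0435 to 7.30 ± 2.29. The kinase Fgr rose by 4.01, the integrin subunit Itgb2 by 3.55 and the exchange factor Vav1 by 2.51. After tamoxifen 4 were lower than in vehicle lesions and 0 higher: Arrb2 (log2 -0.27, edgeR adjusted p = 0.0126), Rgs1 (-1.16, 0.0136), Fgr (-0.84, 0.0206) and Pik3cd (-0.46, 0.0430), with a median of -0.29, beside 8.33% of all genes lower. The Pik3cd call was lost in 9 and the Fgr call in 2 of 12 fits leaving out 1 library. Against uninjured cord 15 were higher and 3 lower in tamoxifen lesions (26.3% and 22.7% of all genes). None of the 4 passed against vehicle with the series term.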

How the data were processed

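Bulk RNA-seq of 12 spinal cord libraries was used, in 3 groups of 4. Per the submitters' processing notes, the authors processed reads with HTSeq, Cufflinks, TopHat and Picard on the mm9 build; strand setting and multiply matching reads: not given in the sources used here. Deposited by the authors were gene counts for 37991 Ensembl genes and FPKM, fragments per kilobase of transcript scaled by depth. The FPKM table gave symbols for 37818 identifiers. The members and gene lists were chosen with earlier results of these data known.

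Counts were tested with edgeR 4.0.16 in R 4.3.3. filterByExpr (minimum count 10, minimum total 15) kept 16473 genes, libraries were scaled by TMM, and all 12 entered a single quasi-likelihood model with a mean per group, with 9 residual degrees of freedom and two-sided tests adjusted by Benjamini-Hochberg over all genes at 0.05. The script was tested on simulated counts. A gene that the naming would include is not reported here, and every other member is named. Those with a group mean of at least 5 CPM, or called between the lesion groups, are described in full, with up to 4 genes of smallest p per pathway list. A library was called high in muscle transcripts above a mean log2 CPM of 2 over 7 genes. Fitted changes of genes with very few counts depend on the prior count. Totals of 7967970 to 12581324 counts put 3 counts at 0.238 to 0.377 CPM. p-values measure the spread between mice numbered separately in the labels.

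Alternatives were DESeq2 1.42.0 (size factors and Wald test), library totals, no filter or 1 CPM in 8 libraries, limma-voom and limma on log2 FPKM with 1 or 0.1 added (limma 3.58.1), the 8 libraries compared, terms for sample name series and sex, no muscle-high libraries, each library left out, and, chosen after seeing the data, the 9 libraries with sample names 1 to 20. Promoter windows come from RefSeq (GRCm38.p6), a later build than the counts, and were joined by symbol.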

Additional observations from a re-analysis of the deposited data

Results flagged for a closer look

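In 11 of 78 groups of 4 libraries, 1 library was far from the other 3 by Dixon's gap test. Its chance rate of about 1 in 20 groups holds for normally distributed values. Low counts are not so distributed, so no excess is read from the 11. Library 452 of the tamoxifen group was the high one for Ccl3 (10.2 CPM, next 4.28), Ccl4 (5.62, next 2.05), Ccl6 (54.3, next 14.1), Cxcl10 (21.8, next 4.46) and Cxcl9 (6.34, next 0.651). Ccl22 was high in tamoxifen library 549 (1.38 CPM, next 0.558) and Ccl27b in 564 (3.85, next 2.77). Cxcl5 was low in 513 (0.558 CPM, next 1.04). Among vehicle libraries Cxcl5 was high in 429 (6.42 CPM, next 0.853) and Cxcl9 was at 0 in 428 (next 1.17). Cxcl9 had its only uninjured count in 377 (0.0855 CPM, others 0), a pattern that the gap test always flags. The genes were measured in the same libraries, so these flags are not independent.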

How the results depend on the processing

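Members higher and lower with injury (18 and 1) stayed within 1.5 times in each alternative except the one without muscle-high libraries (0 and 0); leaving out 1 library gave 16 to 21 higher and 1 to 2 lower. For tamoxifen against vehicle (1 higher, 2 lower) the counts were 2 higher with 1 CPM in 8 libraries, 4 lower with the DESeq2 Wald test, 1 lower on log2 FPKM with 1 or 0.1 added, and 0 and 0 with the series term, without muscle-high libraries and in the 9 libraries with sample names 1 to 20. On log2 FPKM with 1 and 0.1 added, the calls of Ccl11 (limma adjusted p = 0.0564 and 0.101) and Cxcr7 (0.0562 and 0.0668) were both lost. The member called lower there was therefore not one of the 2 lower in the main test. Leaving out 1 library gave 1 to 3 higher and 0 to 6 lower. Against uninjured cord, 16 higher after tamoxifen became 10 without muscle-high libraries.

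With the series term, tamoxifen against vehicle gave 0 higher and 0 lower for genes outside the rule, 1 higher and 0 lower inducers and 0 lower signalling genes. Against uninjured cord it gave 0 lower genes outside the rule, 9 higher inducers and 0 lower signalling genes. Leaving out 1 library gave, against vehicle, 0 to 1 higher and 1 to 2 lower genes outside the rule, 1 to 5 lower inducers and 2 to 6 lower signalling genes, and against uninjured cord 1 to 2 lower genes outside the rule.

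For the 13 members described in full, these log2 changes took the opposite sign, none of them called in the main test. For tamoxifen against vehicle, the series term and the 9 libraries gave Ccl3 0.0036 and 0.0045, Ccl6 0.60 and 0.60, Cxcl10 1.38 and 1.38, and Cxcl12 0.0043 and 0.0050. Without muscle-high libraries Ccl9 was 0.36, Cxcl10 0.57 and Cxcr4 0.26, and with a sex term Cxcl14 was -0.026. For tamoxifen against uninjured, Ccl11 was 0.20 by limma-voom, 0.0099 and 0.14 on log2 FPKM with 1 and 0.1 added, and 0.028 without muscle-high libraries. Ccl25 was -0.48 with the series term and -0.48 in the 9 libraries, and Ccl27a was -0.087 and -0.092 on log2 FPKM with 1 and 0.1 added. For vehicle against uninjured, Ccl25 was 0.31 without muscle-high libraries. Leaving out 1 library reversed values within -0.52 to 0.36 for Ccl11 and -0.037 to 0.13 for Cxcl12 (tamoxifen against uninjured), and -1.10 to 0.25 for Cxcl10 and -0.39 to 0.062 for Cxcr4 (tamoxifen against vehicle). Of the 13 other members tested, 11 had a reversed value in at least 1 fit, 35 values in all, 0 of them called in the main test. Among these, Ccl7 was -0.40 with the series term and -0.40 in the 9 libraries (tamoxifen against uninjured), Cxcl5 -0.35 without muscle-high libraries (vehicle against uninjured), and without 452 Cxcl9 was -1.32 and Ccl12 -0.17 (tamoxifen against vehicle). The cause was not tested.

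No paired analysis was possible because the mouse numbers are not shared between groups. Depth limited the scarce members: 26 of 53 had enough counts for a test.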
